A study of Homo sapiens with 24 samples.

Results

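The transcriptional response of A549 cells to 9 hours of dexamethasone was measured in 4 of the 24 RNA-seq libraries of a treatment time course, 2 from cells given 100 nM dexamethasone (dex) and 2 from cells given ethanol (EtOH) as the vehicle, at 0.02% of the medium by volume. The members were every gene of the deposited count table, read in the 4 columns of this time point, of which 19897 features had enough counts to be tested. A549 is an established human line from a lung adenocarcinoma, and dex is a synthetic glucocorticoid (GC). Both groups share the line, a medium with serum and antibiotics, and the vehicle, and the labels name no transgene, deletion or further agent in either. The other libraries hold the same pair of treatments at 1, 3, 5, 7 and 11 hours. The labels' free text gives a treatment of 1 hour for every library, and the time used here is the one in the separate duration label. The libraries are labelled biological replicates 1 and 2 without a statement that they came from separate cultures, so each p-value measures only the spread between these samples, which may be technical.

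Glucocorticoids cross the cell membrane and bind the glucocorticoid receptor (GR), which waits in the cytoplasm in a complex with HSP90 and its co-chaperones. The bound receptor enters the nucleus, where it activates genes at DNA elements made of a pair of AGAACA-like sequences and represses others, among them inflammatory genes driven by NF-kappaB and AP-1. In lung epithelium glucocorticoids are known for their anti-inflammatory action and for their part in maturation and ion transport.

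The 4 libraries held 7163466 and 13748598 counts with dex and 10967044 and 9793286 counts with EtOH. The EtOH pair differed more than the dex pair, with a chi-square per degree of freedom of 11.01 over 18160 features against 2.65 over 17999. On the log2 scale of normalised counts the 2 pairs were closer to each other. The SD of the difference between replicates was 0.418 for EtOH and 0.389 for dex, and Pearson r was 0.985 and 0.988. Cytosolic ribosomal protein genes, as a whole, made up 2.50% and 2.66% of the dex counts and 2.46% and 3.51% of the EtOH counts, so that EtOH replicate 2 stood apart from the other 3 libraries. Leaving out EtOH replicate 1 or EtOH replicate 2 raised the number of features called changed (the call is defined with the first result) to 6103 (30.7% of those tested, 15.7% higher and 15% lower) or 4728 (23.8%, 12.6% higher and 11.2% lower). Leaving out dex replicate 1 or dex replicate 2 lowered it to 1344 (6.75%, 4.31% higher and 2.45% lower) or 1304 (6.55%, 4.17% higher and 2.38% lower). Of 75 ribosomal protein genes tested, 4 (5.33%) were called lower and 0 higher, against 8.42% lower and 9.79% higher over all features. The median log2 fold change over the list was -0.13. The direction of the list turned with the EtOH library left out, since 64 were lower and 0 higher without EtOH replicate 1, whereas 36 were higher and 3 lower without EtOH replicate 2. No call was made among them with either dex library left out, and no direction is drawn for the list.

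The markers of the line were as labelled in part. *ALDH1A1*, an aldehyde dehydrogenase abundant in A549 cells, had 119192 and 203084 counts with dex and 197497 and 152449 counts with EtOH. *CDKN2A*, which A549 cells lack, and *SFTPC*, the surfactant gene of mature alveolar type 2 cells, had 0 counts in all 4 libraries. *SFTPB*, another surfactant gene, had at most 4 counts in a library, and *NKX2-1*, the lung lineage transcription factor, had at most 2, so these lung-defining markers were near 0. Of 14 markers of other cell types with a row, 7 had 0 counts in all 4 libraries, 3 could be tested, and the list summed to between 0.000949% and 0.00236% of the counts of a library. The 1 of them that changed was *COL1A1*, a fibrillar collagen of fibroblasts, with 48 and 105 counts in the dex libraries and 218 and 190 in the EtOH libraries and a log2 fold change of -1.36 (SE 0.18, edgeR adjusted p = 6.8e-05). In bulk RNA, fewer cells of a kind and less RNA per cell cannot be told apart.

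At 9 hours, 3623 of the 19897 features (18.2%) passed an adjusted p of 0.1 in edgeR's quasi-likelihood F-test with Benjamini-Hochberg adjustment, which is what called means below, and changes are given as log2 fold changes of dex against EtOH unless a ratio is named. Dex raised 1948 of them (9.79%) and lowered 1675 (8.42%). Counts of list members below are to be read against these shares of all features. Where 1 library was left out, they are to be read against the shares given above for that fit, which also shifted. Larger rises outnumbered larger falls, with 665 features raised and 433 lowered by more than 1 on the log2 scale, and 85 raised and 15 lowered by more than 3. The median log2 fold change was 0.74 among the raised features, -0.66 among the lowered and -0.01 over all features tested. Of the 13144 protein-coding genes tested, 1505 rose and 1351 fell. Both dex libraries lay on the same side of both EtOH libraries in 10734 features (53.9%), 5340 with dex above (26.8%) and 5394 with dex below (27.1%), so a lack of overlap alone was common. The call held in the same direction in all 4 fits that left out 1 library for 996 features, and DESeq2 called 2032 (10.2%, 5.95% higher and 4.27% lower), each of them also called by edgeR. With each library's trend on G+C content removed, 3064 of 15337 genes with a transcript sequence were called (20%, 10.7% higher and 9.24% lower). Of these 15337 genes, 3067 were called before the removal, and 2599 were called both ways. Before the removal, the median G+C content was 45.4% among those called higher and 52.6% among those called lower, against 48.2% over all. The other times gave 172 calls at 1 h (0.864%), 2576 at 3 h (12.9%), 4606 at 5 h (23.1%), 5134 at 7 h (25.8%) and 1707 at 11 h (8.58%). The share called higher at these times was 0.523%, 7.66%, 11.2%, 13.4% and 5.31%, and the share called lower 0.342%, 5.29%, 11.9%, 12.4% and 3.27%.

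**Figure D1:**
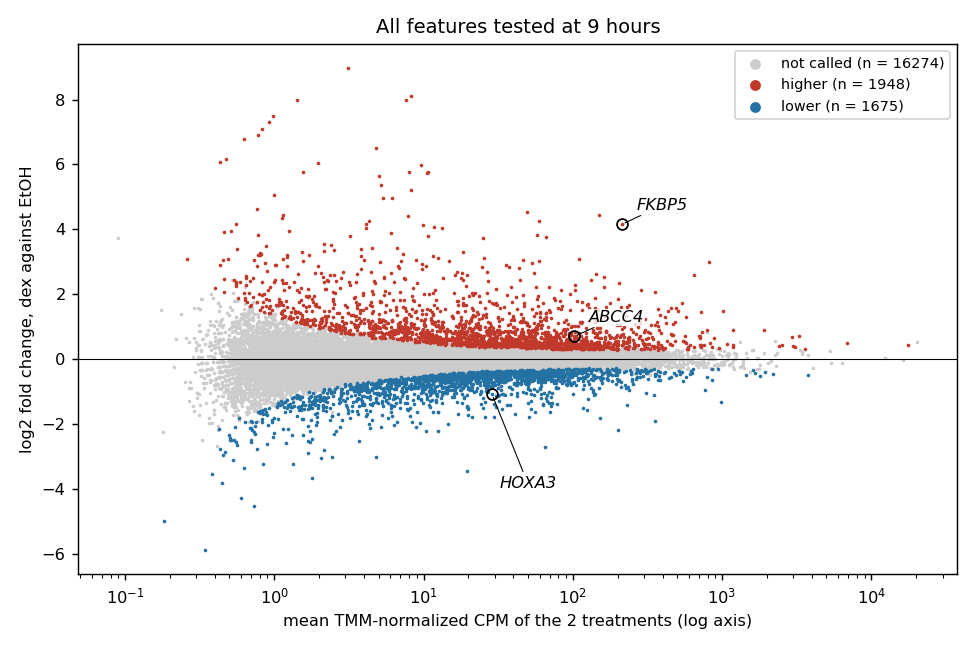
Log2 fold change of dex against EtOH at 9 hours (vertical axis) against mean CPM over the 4 libraries (horizontal axis, log scale). Each tested feature is 1 point, and CPM are counts scaled to the normalised library total. The 1948 features called higher, the 1675 called lower and the 16274 not called are coloured apart, and *FKBP5*, *ABCC4* and *HOXA3* are labelled on the upper, middle and lower side of the cloud, with features at 0 counts in a treatment drawn at their fitted value.

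*FKBP5* encodes a co-chaperone of HSP90 that lowers the affinity of GR for its ligand, and it is among the best known GC-induced genes. The gene (ENSG00000096060.14, chromosome 6, 35573585 to 35728583 of GRCh38) stood at 405 and 402 CPM in the dex libraries against 24.8 and 20.6 CPM in the EtOH libraries, where CPM stands for counts per 1000000 of the normalised library. The dex libraries were within 1% of each other and far above both EtOH libraries, a log2 fold change of 4.15 (SE 0.13, edgeR adjusted p = 5.18e-11). It was called higher from 3 hours on, with log2 fold changes of 0.52 at 1 h, 3.37 at 3 h, 3.75 at 5 h, 4.04 at 7 h, 4.15 at 9 h and 3.96 at 11 h. *ABCC4* (ENSG00000125257.14, chromosome 13, 95019829 to 95301475) encodes MRP4, a transporter that exports cyclic nucleotides, prostanoids and drugs. It stood at 126 and 126 CPM in the dex libraries against 87.2 and 68.6 CPM in the EtOH libraries, higher in both dex libraries, with a log2 fold change of 0.69 (SE 0.13, edgeR adjusted p = 0.0014). *HOXA3* (ENSG00000105997.22, chromosome 7, 27106184 to 27152581), a homeodomain transcription factor of the HOXA cluster, stood at 19.2 and 17.8 CPM in the dex libraries against 42.1 and 35.7 CPM in the EtOH libraries, lower in both dex libraries, with a log2 fold change of -1.08 (SE 0.15, edgeR adjusted p = 9.26e-05). All 3 calls held with any 1 library left out and by DESeq2. *HOXA3* was called lower at all 6 times, its log2 fold changes being -0.60 at 1 h, -0.90 at 3 h, -0.83 at 5 h, -0.68 at 7 h, -1.08 at 9 h and -1.09 at 11 h, while those of *ABCC4* were -0.01 at 1 h, 0.42 at 3 h, 0.16 at 5 h, 0.35 at 7 h, 0.69 at 9 h and 0.51 at 11 h.

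**Figure D2:**
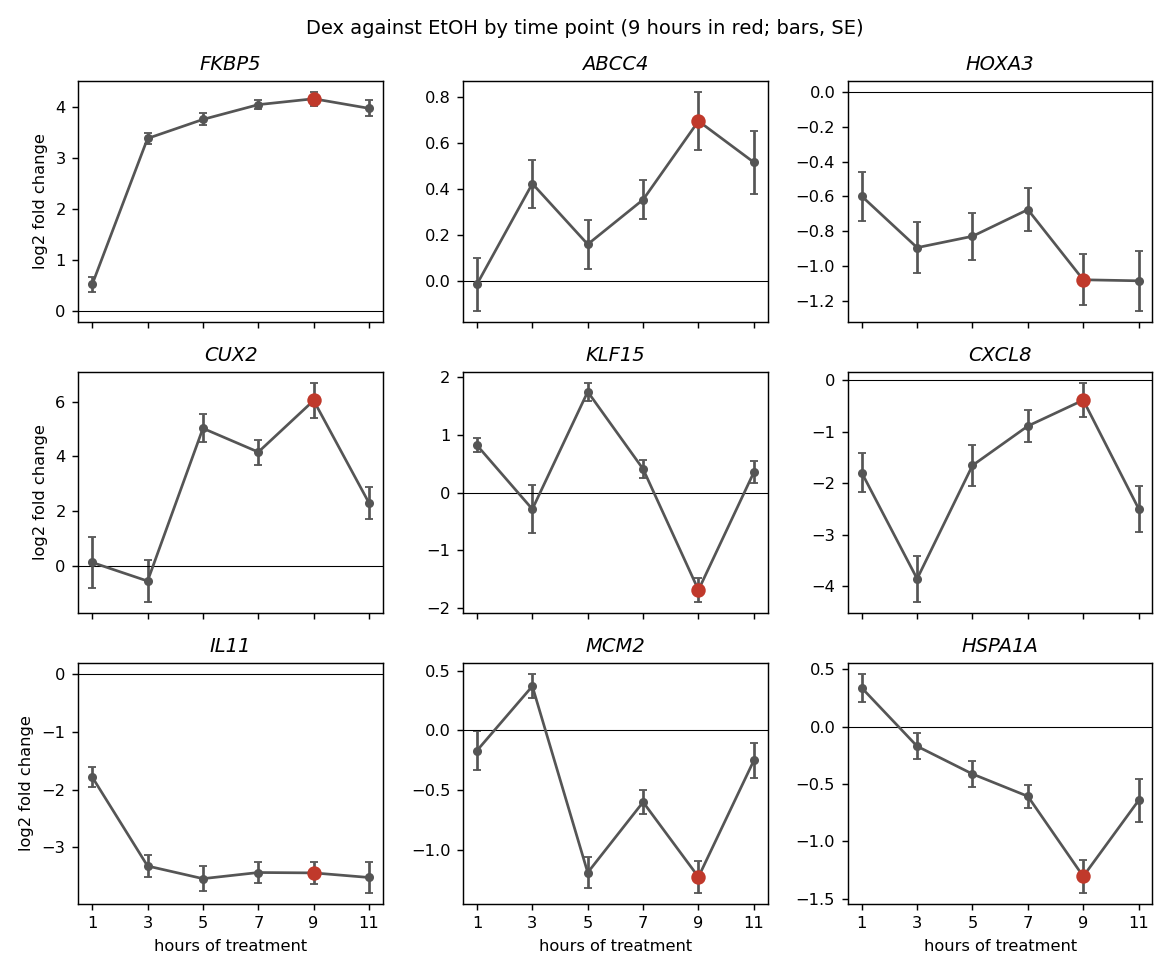
Log2 fold change of dex against EtOH with its standard error (vertical axes) at the 6 times from 1 to 11 hours (horizontal axes) for 9 genes, the 9-hour value in red. *FKBP5* lay above 3 from 3 hours on, *CXCL8* was lowest at 3 hours (-3.85), and *KLF15* was below 0 at 9 hours (-1.69) between values of 0.41 and 0.35 at 7 and 11 hours.

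Genes long known to be induced by glucocorticoids rose as a group. Of 28 such genes, 26 were tested, 23 rose, 1 fell and 2 were not called, with a median log2 fold change of 2.07 against -0.01 over all features. This list, like the others, was chosen with earlier results of these data known. *TSC22D3*, which encodes the anti-inflammatory protein GILZ, stood at 123 and 123 CPM in the dex libraries against 9.81 and 8.39 CPM in the EtOH libraries, a log2 fold change of 3.75 (SE 0.14, edgeR adjusted p = 1.33e-10). *KLF9*, a Krüppel-like repressor, stood at 47.6 and 45.6 CPM in the dex libraries against 3.80 and 3.19 CPM in the EtOH libraries, a log2 fold change of 3.72 (SE 0.17, edgeR adjusted p = 1.89e-09). Both genes had dex libraries more than 10 times above the EtOH libraries. *ANGPTL4*, an inhibitor of lipoprotein lipase, stood at 96.6 and 129 CPM in the dex libraries against 4.51 and 7.49 CPM in the EtOH libraries, a log2 fold change of 4.25 (SE 0.22, edgeR adjusted p = 8.25e-08). *ZFP36*, which encodes an RNA-binding protein that destabilises cytokine mRNAs, rose by 2.84 (SE 0.15, edgeR adjusted p = 6.1e-09). *PER1*, a core clock gene, stood at 60.8 and 65.6 CPM in the dex libraries against 10.1 and 6.69 CPM in the EtOH libraries and rose by 2.91 (SE 0.17, edgeR adjusted p = 1.54e-08). Further rises were those of *SGK1*, a kinase that regulates sodium transport, at 1.37, of the MAP kinase phosphatase *DUSP1* at 1.54, of the zinc-binding metallothioneins *MT2A* at 2.53 and *MT1X* at 2.95, and of *GLUL*, glutamine synthetase, at 0.74. The counts were 23 higher and 1 lower without dex replicate 1, 22 and 1 without dex replicate 2, 24 and 1 without EtOH replicate 1, and 23 and 1 without EtOH replicate 2. *HSD11B2* was not called with dex replicate 2 left out.

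The exception among these targets was *KLF15*, a Krüppel-like factor that controls amino acid and glucose metabolism. It had 96 and 322 counts in the dex libraries and 740 and 602 in the EtOH libraries, or 13.7 and 24.1 CPM in the dex libraries against 65.4 and 60.1 CPM in the EtOH libraries, and the log2 fold change was -1.69 (SE 0.20, edgeR adjusted p = 0.000207), a call that held with each library left out. Both dex libraries were below both EtOH libraries at 9 hours, while at 7 hours it had 182 and 125 counts in the dex libraries and 112 and 143 in the EtOH libraries, and at 11 hours 186 and 193 counts in the dex libraries and 98 and 128 in the EtOH libraries. The EtOH libraries at 9 hours were thus above those at 7 and 11 hours, and EtOH counts of comparable size were found at 1 hour, with 814 and 586 counts in the dex libraries and 581 and 635 in the EtOH libraries. Its log2 fold changes over the time course were 0.82 at 1 h, -0.29 at 3 h, 1.75 at 5 h, 0.41 at 7 h, -1.69 at 9 h and 0.35 at 11 h. *TAT*, the liver enzyme tyrosine aminotransferase, was not called, with 3 and 7 counts in the dex libraries and 10 and 6 in the EtOH libraries and -0.60 (edgeR adjusted p = 0.594), nor was *IGFBP1* at 0.50 (edgeR adjusted p = 0.195). *ZBTB16*, with 0 and 4 counts with dex and 0 in both EtOH libraries, and *PCK1*, with at most 5 counts, were too low to test.

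The receptor and the proteins that fold it moved in both directions. Among 24 such genes, 23 were tested, 5 rose and 4 fell. *NR3C1*, the gene of GR itself, stood at 454 and 430.4 CPM in the dex libraries against 683 and 523 CPM in the EtOH libraries, lower in both dex libraries, with a log2 fold change of -0.45 (SE 0.13, edgeR adjusted p = 0.0296). The strongest fall was that of *HSPA1A*, the inducible HSP70, at 36.9 and 39.9 CPM in the dex libraries against 81.9 and 109 CPM in the EtOH libraries, a log2 fold change of -1.31 (SE 0.14, edgeR adjusted p = 1.1e-05), and the near-identical *HSPA1B* can share its reads. *BAG1*, an HSP70 nucleotide exchange factor that binds GR, fell, at -0.68 (SE 0.14, edgeR adjusted p = 0.0043). *DNAJB1*, an HSP40 co-chaperone, rose by 0.43 (SE 0.11, edgeR adjusted p = 0.014), whereas *HSP90AA1*, the inducible HSP90, was not called at -0.29 (edgeR adjusted p = 0.115). *HSD11B1*, which reactivates cortisone to cortisol, had 15 and 13 counts in the dex libraries and 0 and 0 in the EtOH libraries, at least 5.52-fold higher with dex against a floor of 3 counts per library, a call that DESeq2 did not make. *NR3C1* and *DNAJB1* were not called with either dex library left out, and *BAG1* was not called with dex replicate 2 left out.

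Among circadian clock genes and their outputs, 7 of 20 tested rose and 3 fell, with a median log2 fold change of 0.18. Of the negative limb of the clock, *PER1* (above), *PER2* at 1.06 (SE 0.18, edgeR adjusted p = 0.000775), *CRY1* at 0.52 and *CRY2* at 1.48 were higher with dex, and *PER3* was not called at 0.21 (edgeR adjusted p = 0.665). Of the positive limb, *ARNTL*, the BMAL1 gene, at -0.49, its relative *ARNTL2* at -0.51 and *NPAS2* at -0.53 were called lower, and *CLOCK* was not called at 0.14 (edgeR adjusted p = 0.569). The PAR bZIP output factors *TEF* (0.78) and *HLF* (0.90) rose. *NR1D2*, which encodes the repressor REV-ERB beta, was not called at 9 hours, at 0.03 (edgeR adjusted p = 0.943). For the clock list the counts of higher and lower genes were 3 and 0 without dex replicate 1, 3 and 0 without dex replicate 2, 10 and 4 without EtOH replicate 1 and 5 and 7 without EtOH replicate 2. *CRY1*, *ARNTL2*, *NPAS2* and *TEF* were not called with either dex library left out, and *ARNTL* was not called with dex replicate 1, dex replicate 2 or EtOH replicate 1 left out, and *HLF* was not called with dex replicate 1, dex replicate 2 or EtOH replicate 2 left out.

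The 12 genes with the largest rises had almost no counts in the EtOH libraries. *ALPP*, placental alkaline phosphatase, had 111 and 225 counts in the dex libraries and 1 and 0 in the EtOH libraries, a ratio of 352-fold (exact 95% interval from the counts 62.8 to 13954). Its near-identical neighbour *ALPG* had 51 and 68 counts in the dex libraries and 0 and 0 in the EtOH libraries, at least 21.9-fold higher with dex, and reads of the pair can be split between them. Both lie side by side on chromosome 2, *ALPP* from 232378534 to 232382889 and *ALPG* from 232406843 to 232410714. *CDH16*, a cadherin best known from kidney epithelium, had 107 and 199 counts in the dex libraries and 0 and 1 in the EtOH libraries, a ratio of 321-fold (exact 95% interval from the counts 57.1 to 12711). *SLC16A12*, a monocarboxylate transporter family member that carries creatine, had 67 and 127 counts in the dex libraries and 1 and 1 in the EtOH libraries, a ratio of 102-fold (exact 95% interval from the counts 27.8 to 846). *CUX2*, a homeodomain transcription factor, had 27 and 52 counts in the dex libraries and 1 and 0 in the EtOH libraries, a ratio of 82.8-fold (exact 95% interval from the counts 14.4 to 3312). In each of these 5 genes both EtOH libraries were at 0 or 1 count and no dex library was below 27.

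The other 7 leading genes had a few counts in every EtOH library. *DNAJC15*, a co-chaperone of the mitochondrial inner membrane, had 148 and 223 counts in the dex libraries and 2 and 4 in the EtOH libraries, a log2 fold change of 6.0 (SE 0.35, edgeR adjusted p = 1.21e-08). *KRT6A*, a keratin of activated epithelium, had 96 and 239 counts in the dex libraries and 2 and 4 in the EtOH libraries, a log2 fold change of 5.77 (SE 0.36, edgeR adjusted p = 2.74e-08). *STAC2*, an adaptor of voltage-gated calcium channels, rose by 5.77 (SE 0.30, edgeR adjusted p = 5.73e-09). These genes had at most 5 counts in an EtOH library and at least 96 in a dex library. *GPR1*, a receptor for chemerin, had 147 and 275 counts in the dex libraries and 2 and 6 in the EtOH libraries and rose by 5.75 (SE 0.33, edgeR adjusted p = 1.01e-08). *CILP*, a matrix protein of cartilage, rose by 5.38 (SE 0.38, edgeR adjusted p = 8.31e-08), and *EDN3*, the vasoconstrictor peptide endothelin 3, by 5.22 (SE 0.33, edgeR adjusted p = 3.13e-08). *CDKN1C*, which encodes the CDK inhibitor p57, had 68 and 149 counts in the dex libraries and 3 and 4 in the EtOH libraries and rose by 4.95 (SE 0.36, edgeR adjusted p = 1.09e-07). The calls of all 12 held with each library left out and by DESeq2.

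**Figure D3:**
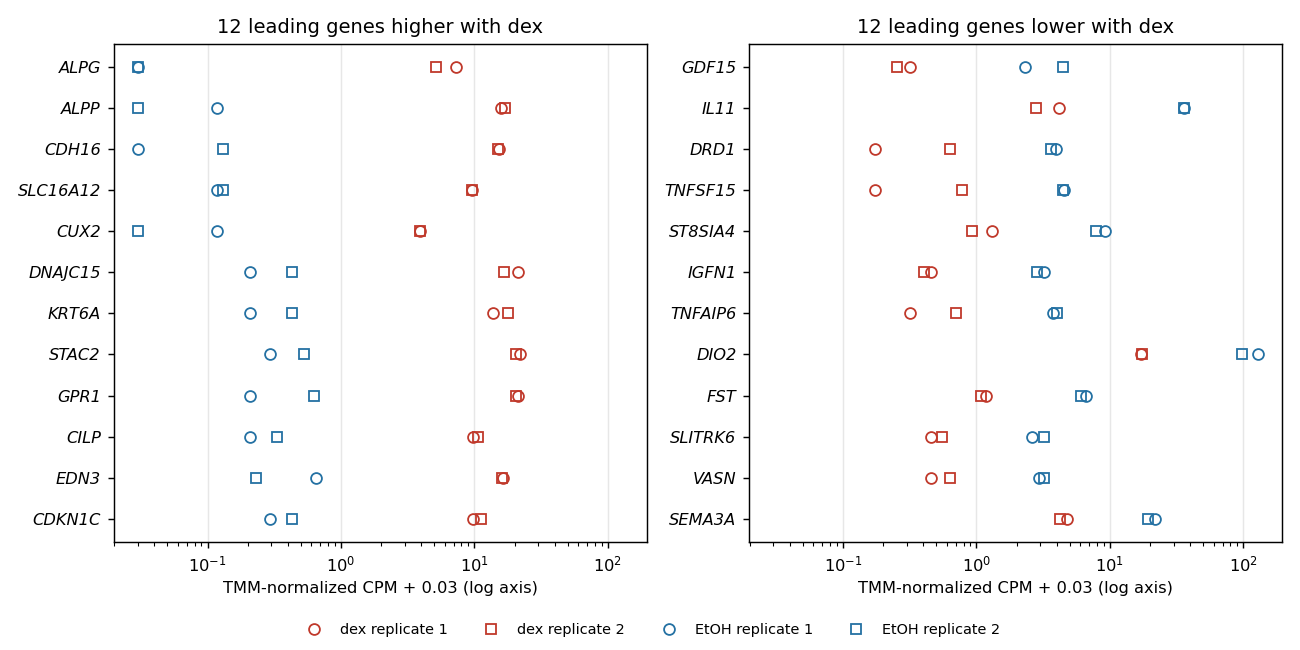
Normalised CPM plus 0.03 (log axis) in the 2 dex and the 2 EtOH libraries for the 12 genes with the largest rises and the 12 with the largest falls at 9 hours, 1 point per library. The genes were chosen to have no overlap between treatments, so the dex and EtOH points are apart in each by selection. The EtOH points of *ALPG* lie at the bottom of the axis because both libraries had 0 counts.

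The 12 genes with the largest falls included secreted ligands and proteins that bind them. *IL11*, a cytokine of the IL-6 family, stood at 4.15 and 2.77 CPM in the dex libraries against 35.9 and 35.8 CPM in the EtOH libraries, a log2 fold change of -3.44 (SE 0.20, edgeR adjusted p = 1.06e-08). *GDF15*, a stress-induced ligand of the TGF-beta superfamily, had 2 and 3 counts in the dex libraries and 26 and 44 in the EtOH libraries, a log2 fold change of -3.68 (SE 0.55, edgeR adjusted p = 0.000249). *TNFSF15*, the TNF family ligand TL1A, had 1 and 10 counts in the dex libraries and 51 and 44 in the EtOH libraries, a log2 fold change of -3.03 (SE 0.43, edgeR adjusted p = 0.000146). All 3 were low in both dex libraries. *DIO2*, the deiodinase that turns thyroxine into its active form, stood at 17.0 and 17.4 CPM in the dex libraries against 129 and 97.7 CPM in the EtOH libraries, a log2 fold change of -2.72 (SE 0.15, edgeR adjusted p = 1e-08). *TNFAIP6*, a hyaluronan-binding protein of inflamed tissue, fell, at -2.82 (SE 0.41, edgeR adjusted p = 0.000193), and *FST*, follistatin, an antagonist of activins, at -2.53 (SE 0.31, edgeR adjusted p = 3.13e-05). *SEMA3A*, a secreted guidance molecule, had 33 and 56 counts in the dex libraries and 247 and 194 in the EtOH libraries and fell, at -2.23 (SE 0.20, edgeR adjusted p = 9e-07). The remaining 5 were the polysialyltransferase *ST8SIA4* at -3.02, the dopamine receptor *DRD1* at -3.06, *IGFN1*, an immunoglobulin-like domain protein, at -2.89, the transmembrane protein *SLITRK6* at -2.52, and *VASN*, which binds TGF-beta, at -2.48. The calls of all 12 held with each library left out and by DESeq2.

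The promoters of these falling genes are shown because several share the AP-1 consensus, the site bound by FOS and JUN dimers. RefSeq windows (GRCh38.p14) of 250 bases before to 50 bases after a start site were at hand for 10699 of 15324 symbols, 15541 windows in all, and were read on both strands. The letters TGACTCA stood in 5 of 12 windows (41.7%) of the 11 genes with a window among the 12 with the largest falls, in 8.87% of windows of genes lowered by more than 1 on the log2 scale, in 6.74% of those raised by more than 1 and in 3.74% of all windows. None of the 7 windows at hand for the 12 genes with the largest rises held them. Over all genes called lower they stood in 5.15% of windows, and over all genes called higher in 4.87%. The stretches below run 5′ to 3′ along the gene's strand, with the motif, or its reverse complement TGAGTCA, in capitals, and end at most 30 bases to either side.
*IL11* (chr19:55370523-55370589, minus strand): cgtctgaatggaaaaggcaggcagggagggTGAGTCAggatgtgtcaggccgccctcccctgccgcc
*TNFSF15* (chr9:114792614-114792680, minus strand): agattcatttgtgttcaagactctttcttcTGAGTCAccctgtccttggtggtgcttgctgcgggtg
*TNFAIP6* (chr2:151357433-151357499, plus strand): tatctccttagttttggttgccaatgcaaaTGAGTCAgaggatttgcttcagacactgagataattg
*SLITRK6* (chr13:85799420-85799469, minus strand): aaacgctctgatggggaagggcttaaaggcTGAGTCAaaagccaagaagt
*DIO2* (chr14:80211486-80211522, minus strand): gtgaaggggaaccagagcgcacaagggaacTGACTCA
The motif began 96, 120, 129 and 20 bases before the start site in *IL11*, *TNFSF15*, *TNFAIP6* and *SLITRK6*, and 13 bases after it in *DIO2*. These are matches of letters only. The full glucocorticoid response element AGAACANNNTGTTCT was in none of the 15541 windows, and the letters AGAACA alone were in 9.76% of them.

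Cytokines and chemokines moved both ways, with 7 of 16 tested lower and 3 higher. Besides *IL11* and *TNFSF15*, the falls included *CCL2*, a chemoattractant of monocytes, with 39 and 80 counts in the dex libraries and 183 and 164 in the EtOH libraries and -1.48 (SE 0.19, edgeR adjusted p = 5.23e-05), and *CXCL1*, a chemoattractant of neutrophils, at -1.70 (SE 0.28, edgeR adjusted p = 0.00067). *CXCL16* (-1.14), *CXCL5* (-0.89) and the IL-6 family cytokine *LIF* (-0.65) also fell. The 3 that rose were *CXCL2*, a neighbour and relative of *CXCL1*, at 0.98 (SE 0.28, edgeR adjusted p = 0.0283), *IL15*, a growth factor of lymphocytes, at 0.67, and *CSF3*, which encodes G-CSF, with 12 and 21 counts in the dex libraries and 0 and 0 in the EtOH libraries, at least 5.82-fold higher. The median log2 fold change was -0.49. For the cytokine list the counts of higher and lower genes were 3 and 6 without dex replicate 1, 2 and 5 without dex replicate 2, 4 and 7 without EtOH replicate 1 and 4 and 7 without EtOH replicate 2. *LIF* was not called with either dex library left out, and *CXCL16* and *CXCL2* were not called with dex replicate 2 left out. The *CSF3* call was not made by DESeq2.

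Several feedback inhibitors of NF-kappaB, the dimeric transcription factor of inflammatory signalling, rose, while subunits of the non-canonical branch fell. *NFKBIA*, the inhibitor IkB alpha, stood at 214 and 225 CPM in the dex libraries against 73.2 and 79.8 CPM in the EtOH libraries, a log2 fold change of 1.52 (SE 0.11, edgeR adjusted p = 1.47e-07). *TNFAIP3*, the ubiquitin-editing enzyme A20, rose by 2.01 (SE 0.22, edgeR adjusted p = 8.68e-06), its partner *TNIP1* by 0.56 and the ubiquitin ligase *BIRC3* by 2.27 (SE 0.13, edgeR adjusted p = 1.47e-08). *NFKB2*, the p100 precursor, stood at 10.0 and 10.7 CPM in the dex libraries against 26.9 and 30.1 CPM in the EtOH libraries, a log2 fold change of -1.45 (SE 0.16, edgeR adjusted p = 1.02e-05), and its dimer partner *RELB* fell, at -1.31 (SE 0.33, edgeR adjusted p = 0.0147). The inhibitor *NFKBIE*, IkB epsilon, fell as well, at -0.68. *RELA*, the p65 subunit, was not called at 0.03 (edgeR adjusted p = 0.922). In all, 5 of 20 genes rose and 3 fell, with a median of -0.03. For the NF-kappaB list the counts of higher and lower genes were 3 and 1 without dex replicate 1, 3 and 1 without dex replicate 2, 5 and 5 without EtOH replicate 1 and 7 and 5 without EtOH replicate 2. *TNIP1*, *RELB*, *NFKBIE* and *NFKBIZ* were not called with either dex library left out.

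Among growth factor genes 8 of 24 tested fell and 4 rose, with a median of -0.27. Ligands of the EGF receptor family were among the falls, namely *EREG*, epiregulin, at -1.52 (SE 0.14, edgeR adjusted p = 1.71e-06), *AREG*, amphiregulin, at -1.08, *NRG1*, neuregulin 1, at -1.03 and *TGFA* at -0.78. *IGFBP3*, which binds insulin-like growth factors, stood at 64.2 and 79.0 CPM in the dex libraries against 293 and 369 CPM in the EtOH libraries, a log2 fold change of -2.20 (SE 0.14, edgeR adjusted p = 3.23e-08). *TGFB2* fell, at -1.64 (SE 0.13, edgeR adjusted p = 2.89e-07), and *BMP2* had 0 and 1 counts in the dex libraries and 14 and 11 in the EtOH libraries, a ratio of 23.8-fold (exact 95% interval from the counts 3.90 to 979) in favour of EtOH. The rises were those of *CTGF* (1.87, SE 0.12, edgeR adjusted p = 3.83e-08), a matrix protein, *PDGFC* (0.92), *VEGFA* (0.49), the angiogenic factor, and the activin subunit *INHBB* (0.41). For the growth factor list the counts of higher and lower genes were 2 and 8 without dex replicate 1, 1 and 7 without dex replicate 2, 6 and 11 without EtOH replicate 1 and 4 and 8 without EtOH replicate 2. *VEGFA* and *INHBB* were not called with either dex library left out, and *TGFA* and *PDGFC* were not called with dex replicate 2 left out.

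AP-1 subunits and immediate early genes, which answer growth signals within minutes, were divided, 7 of 18 tested higher and 6 lower. *FOS* (0.91) and *FOSL2* (0.73) rose, *FOSL1* (-1.02, SE 0.21, edgeR adjusted p = 0.00418) and *JUND* (-1.03, SE 0.23, edgeR adjusted p = 0.0061) fell, and *JUN* was not called at -0.18 (edgeR adjusted p = 0.55). *KLF6*, a Krüppel-like activator, rose by 1.66 (SE 0.11, edgeR adjusted p = 6.24e-08). *IER2* (-1.18), *IER3* (-1.64), *IER5* (-1.21) and the small Maf protein *MAFK* (-1.49) fell. For the AP-1 list the counts of higher and lower genes were 3 and 6 without dex replicate 1, 2 and 5 without dex replicate 2, 6 and 8 without EtOH replicate 1 and 7 and 6 without EtOH replicate 2. *JUNB*, *MYC* and *KLF10* were not called with either dex library left out, and *SRF* was not called with dex replicate 1, dex replicate 2 or EtOH replicate 1 left out, and *FOS* and *JUND* were not called with dex replicate 2 left out. Brakes on MAP kinase and receptor signalling rose in 6 of 17 cases and fell in 2. *DUSP1*, which dephosphorylates p38, JNK and ERK, stood at 579 and 522 CPM in the dex libraries against 208 and 169.6 CPM in the EtOH libraries. *ERRFI1*, an inhibitor of the EGF receptor, rose by 2.13 (SE 0.12, edgeR adjusted p = 9.41e-09), *RGS2*, which shortens G protein signals, by 1.92 (SE 0.16, edgeR adjusted p = 6.45e-07), and *SPRY1*, Sprouty 1, by 1.29. The falls were *DUSP4* at -0.93 and *PHLDA1* at -0.69. For the brake list the counts of higher and lower genes were 4 and 2 without dex replicate 1, 5 and 1 without dex replicate 2, 9 and 2 without EtOH replicate 1 and 5 and 3 without EtOH replicate 2. *SPRY1* was not called with dex replicate 1 left out, and *DUSP16* was not called with dex replicate 1, dex replicate 2 or EtOH replicate 2 left out, and *PHLDA1* was not called with dex replicate 2 left out.

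Genes of DNA replication fell together. Of 41 S phase genes tested, 29 were lower and 0 higher, with a median log2 fold change of -0.55 against -0.01 over all features. *MCM2*, a subunit of the replicative helicase, stood at 64.5 and 86.4 CPM in the dex libraries against 179.5 and 176 CPM in the EtOH libraries, a log2 fold change of -1.23 (SE 0.13, edgeR adjusted p = 9.13e-06). *CDC6*, which loads the helicase, stood at 56.9 and 70.5 CPM in the dex libraries against 135 and 137 CPM in the EtOH libraries, a log2 fold change of -1.09 (SE 0.12, edgeR adjusted p = 1.67e-05). *DTL*, a ubiquitin ligase adaptor that guards against re-replication, stood at 40.6 and 43.1 CPM in the dex libraries against 90.7 and 81.2 CPM in the EtOH libraries, a log2 fold change of -1.03 (SE 0.12, edgeR adjusted p = 2.72e-05). In all 3 genes both dex libraries were below both EtOH libraries. *MCM5* (-0.92), *PCNA* (-0.64), the sliding clamp, and *E2F8* (-0.84) also fell, whereas *RRM2*, a ribonucleotide reductase subunit, was not called at 0.01 (edgeR adjusted p = 0.966). The median log2 fold change of the list was -0.56 and -0.53 without dex replicate 1 and 2. It was -0.53 and -0.54 without EtOH replicate 1 and 2. Fewer S phase genes were called lower with either dex library left out, and DESeq2 called 25 lower and 0 higher. *PCNA* was not called with either dex library left out.

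Fewer mitotic genes were called. Of 52 G2 and M phase genes tested, 16 were lower and 0 higher, with a median of -0.27. The falls included *HJURP*, a histone chaperone of the centromere, at -0.75 (SE 0.11, edgeR adjusted p = 0.00025), *RANGAP1* at -0.64, the kinetochore gene *NDC80* at -0.63 and the proliferation marker *MKI67* at -0.54. *TOP2A* (-0.15, edgeR adjusted p = 0.438), *CDK1* (-0.05, 0.851) and *AURKA* (0.05, 0.886) were not called. The number of falls was 2 with either dex library left out and 23 with either EtOH library left out, with 3 rises without EtOH replicate 1, and DESeq2 called 9. With the G+C trend removed 27 fell, and with the replicate number as a block 25. *RANGAP1* was not called with dex replicate 1 left out, and *MKI67* was not called with either dex library left out, and *NDC80* was not called with dex replicate 2 left out. Among cyclins, CDK inhibitors and E2F factors, 8 of 28 tested fell and 3 rose. *CDKN1A*, the CDK inhibitor p21, stood at 169 and 187 CPM in the dex libraries against 80.4 and 78.9 CPM in the EtOH libraries, a log2 fold change of 1.16 (SE 0.11, edgeR adjusted p = 2.84e-06), beside the rise of *CDKN1C* and a small one of *CCND1*, cyclin D1, at 0.50. *CCND3*, cyclin D3, fell, at -1.08 (SE 0.15, edgeR adjusted p = 0.000179), the E2F activators *E2F1* at -1.02 (SE 0.13, edgeR adjusted p = 7.64e-05) and *E2F2* at -1.07, the phosphatase *CDC25A* at -0.86 and the kinases *CDK6* at -0.49 and *CDK2* at -0.34. *CDC25A* was not called with dex replicate 1 left out, and *CCND1*, *CDK6* and *CDK2* were not called with either dex library left out, and *E2F7* was not called with dex replicate 2 left out.

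The S phase promoters are shown because E2F factors act at TTTGGCGC and TTTCCCGC. TTTGGCGC was in 8 of 39 windows (20.5%) of the 30 S phase genes with a window against 0.933% of all windows. TTTCCCGC was in 7 of 39 (17.9%) against 2.34%. In windows of S phase genes called lower the shares were 20% and 13.3%, no higher than in the whole list. Members not called, such as *GMNN* and *TYMS*, held these letters too, and the stretches below are from genes called lower only. Capitals mark the motif or its reverse complement, and each stretch ends at most 30 bases to either side.
*DTL* (chr1:212035710-212035747, plus strand): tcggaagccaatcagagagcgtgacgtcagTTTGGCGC
*CDC6* (chr17:40287856-40287893, plus strand): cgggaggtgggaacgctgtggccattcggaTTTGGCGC
*MCM6* (chr2:135876496-135876563, minus strand): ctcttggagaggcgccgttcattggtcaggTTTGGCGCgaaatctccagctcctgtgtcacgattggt
*E2F1* (chr20:33686386-33686435, minus strand): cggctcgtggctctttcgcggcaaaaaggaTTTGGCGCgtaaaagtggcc
*CLSPN* (chr1:35769976-35770013, minus strand): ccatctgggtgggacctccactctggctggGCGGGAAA
*E2F1* is shown from the cyclin and E2F list. The log2 fold changes beside these stretches were -1.03 for *DTL*, -1.09 for *CDC6*, -0.68 for *MCM6*, a further helicase subunit (edgeR adjusted p = 0.000429), -1.02 for *E2F1* and -0.84 for *CLSPN*, a checkpoint adaptor (edgeR adjusted p = 0.000861). The windows of mitotic genes were read for another element. TTTGAA, the core of the cell cycle homology region through which they are repressed in quiescent cells, was in 35 of 55 windows (63.6%) of G2 and M phase genes against 10.7% of all windows. E2F letters were in 1 of those 55 windows for each of the 2 forms.

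**Figure D4:**
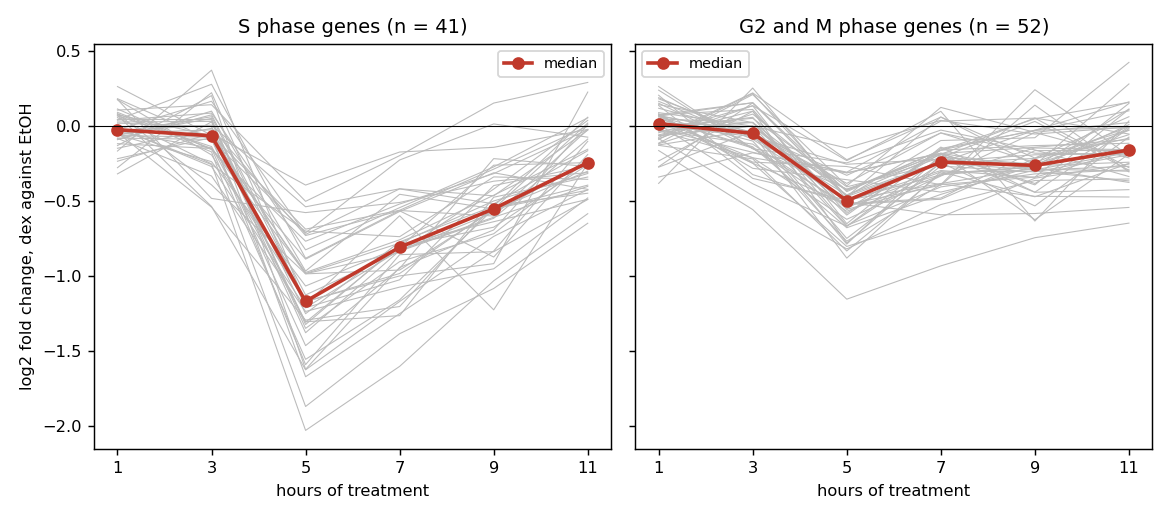
Log2 fold change of dex against EtOH (vertical axes) at 1 to 11 hours (horizontal axes) for 41 S phase genes and 52 G2 and M phase genes, 1 grey line per gene and the median in red. The S phase median was -0.03 at 1 h, -0.07 at 3 h, -1.17 at 5 h, -0.81 at 7 h, -0.55 at 9 h and -0.25 at 11 h.

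The S phase median at 9 hours lay between those at 7 and 11 hours. The number of S phase genes called lower was 0 at 1 h, 5 at 3 h, 41 at 5 h, 40 at 7 h, 29 at 9 h and 2 at 11 h, and that of G2 and M phase genes was 0, 5, 47, 30, 16 and 2. These calls come from separate fits at each time, and the biological coefficient of variation ran from 6.48% at 7 h to 12.7% at 11 h, so counts of calls at different times do not have the same precision. Against 3 hours the difference itself was tested, and 18 S phase genes and 6 G2 and M phase genes had a lower response at 9 hours, with 0 above, where 4.72% of all features had a lower and 3.76% a higher one. With the G+C trend removed the numbers were 23 and 10. Against 7 hours, 2 S phase genes were higher at 9 hours and 0 lower, and those 2 were no longer called once the trend of counts with G+C content was removed.

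Among genes of fuel metabolism 13 of 33 tested rose and 4 fell. *ACSL1*, which activates long-chain fatty acids, stood at 198 and 198 CPM in the dex libraries against 24.7 and 22.5 CPM in the EtOH libraries, a log2 fold change of 3.07 (SE 0.12, edgeR adjusted p = 2.54e-10). *PDK4*, which closes pyruvate dehydrogenase, rose by 2.23 (SE 0.12, edgeR adjusted p = 8.68e-09). *IRS2*, an adaptor of the insulin receptor, rose by 2.14 (SE 0.12, edgeR adjusted p = 7.68e-09), while its relative *IRS1* fell, at -0.39 (SE 0.14, edgeR adjusted p = 0.0733). The forkhead factors *FOXO1* (2.04) and *FOXO3* (1.41) rose, and the glycolytic regulator *PFKFB3* (-0.58) and the glucose transporter *SLC2A3* (-0.47) fell. For the metabolic list the counts of higher and lower genes were 10 and 0 without dex replicate 1, 10 and 0 without dex replicate 2, 14 and 4 without EtOH replicate 1 and 14 and 5 without EtOH replicate 2. Among genes of cholesterol and fatty acid synthesis 4 of 24 rose and 5 fell, with *SREBF1*, a regulator of lipid synthesis, at -0.60 (SE 0.11, edgeR adjusted p = 0.00184). *SREBF1* was not called with dex replicate 1 left out, and *PFKFB3* was not called with either dex library left out, and *SLC2A3* was not called with dex replicate 1, dex replicate 2 or EtOH replicate 1 left out, and *IRS1* was not called with dex replicate 1, dex replicate 2 or EtOH replicate 2 left out. For the sterol list the counts of higher and lower genes were 1 and 1 without dex replicate 1, 1 and 2 without dex replicate 2, 6 and 7 without EtOH replicate 1 and 7 and 5 without EtOH replicate 2. In the amino acid and ER stress list 4 of 25 rose and 6 fell, led by *SLC7A11*, the cystine transporter, at 149.9 and 147 CPM in the dex libraries against 643 and 472 CPM in the EtOH libraries, a log2 fold change of -1.91 (SE 0.14, edgeR adjusted p = 1.53e-07). For the stress list the counts of higher and lower genes were 1 and 2 without dex replicate 1, 1 and 2 without dex replicate 2, 6 and 11 without EtOH replicate 1 and 6 and 6 without EtOH replicate 2.

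Transport of sodium and water, a known target of corticosteroids in epithelia, changed in 11 of 18 tested genes, 7 higher and 4 lower. *SCNN1A*, the alpha subunit of the epithelial sodium channel, stood at 32.6 and 31.0 CPM in the dex libraries against 5.92 and 7.49 CPM in the EtOH libraries, a log2 fold change of 2.25 (SE 0.17, edgeR adjusted p = 1.99e-07), and its gamma subunit *SCNN1G* had 12 and 17 counts in the dex libraries and 1 and 0 in the EtOH libraries, a ratio of 30.4-fold (exact 95% interval from the counts 5.04 to 1242). *AQP3*, a channel for water and glycerol, rose by 2.38 (SE 0.25, edgeR adjusted p = 6.81e-06). *ATP1B1*, a beta subunit of the sodium pump, fell, at -0.56 (SE 0.11, edgeR adjusted p = 0.00219) and the bicarbonate cotransporter *SLC4A4* at -0.94 (SE 0.17, edgeR adjusted p = 0.00151). For the ion transport list the counts of higher and lower genes were 5 and 1 without dex replicate 1, 5 and 1 without dex replicate 2, 7 and 5 without EtOH replicate 1 and 9 and 5 without EtOH replicate 2. *ATP1B1* was not called with either dex library left out, and *SLC4A4* was not called with dex replicate 2 left out.

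Of the ABC transporters, to which *ABCC4* belongs, 5 of 29 tested rose and 3 fell, with a median of 0.06, where 9.79% of all features rose and 8.42% fell. *ABCA8* had the largest rise at 2.33 (SE 0.52, edgeR adjusted p = 0.00631), followed by *ABCA7* at 1.16 (SE 0.18, edgeR adjusted p = 0.000301) and *ABCA1*, which exports cholesterol, at 0.93 (SE 0.15, edgeR adjusted p = 0.000567). *ABCC1* (-0.53) and *ABCG2* (-0.66), exporters known from drug resistance, and *ABCB6* (-0.51) fell. For the ABC list the counts of higher and lower genes were 4 and 0 without dex replicate 1, 4 and 0 without dex replicate 2, 10 and 4 without EtOH replicate 1 and 5 and 2 without EtOH replicate 2. *ABCC1* and *ABCG2* were not called with either dex library left out, and *ABCB6* and *ABCA5* were not called with dex replicate 1, dex replicate 2 or EtOH replicate 2 left out. The HOX list, to which *HOXA3* belongs, had 28 of 39 genes tested, of which 5 fell and 1 rose, a share called near the 18.2% of all features. The falls were *HOXA3* and *HOXA5* (-0.63), *HOXB9* (-0.85), *HOXC8* (-0.79) and *HOXD11* (-0.89). *HOXC13*, which controls hair keratin genes, stood at 10.0 and 9.66 CPM in the dex libraries against 2.83 and 3.59 CPM in the EtOH libraries, a log2 fold change of 1.61 (SE 0.23, edgeR adjusted p = 0.000192). For the HOX list the counts of higher and lower genes were 1 and 2 without dex replicate 1, 1 and 1 without dex replicate 2, 2 and 6 without EtOH replicate 1 and 1 and 3 without EtOH replicate 2. *HOXA5* was not called with either dex library left out, and *HOXB9* and *HOXD11* were not called with dex replicate 1, dex replicate 2 or EtOH replicate 2 left out, and *HOXC8* was not called with dex replicate 2 left out.

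Junction and cytoskeleton genes of epithelia were divided, 9 of 28 tested higher and 7 lower. *SNAI2*, which encodes the repressor SLUG, rose by 3.11 (SE 0.21, edgeR adjusted p = 5.9e-08), and *PKP2*, a desmosome plaque protein, by 2.03 (SE 0.16, edgeR adjusted p = 2.08e-07). *CLDN7* had 11 and 28 counts in the dex libraries and 0 and 0 in the EtOH libraries, at least 6.50-fold higher, a call that DESeq2 did not make, whereas the claudins *CLDN1* (-1.05, SE 0.12, edgeR adjusted p = 2.38e-05) and *CLDN2* (-1.55, SE 0.15, edgeR adjusted p = 2.64e-06) fell. The keratin pair of simple epithelia, *KRT8* (0.67) and *KRT18* (0.71), rose, and *KRT19* (-1.03) and *KRT80* (-0.96) fell. Keratin genes have processed pseudogenes with which reads can be shared. For the junction list the counts of higher and lower genes were 6 and 4 without dex replicate 1, 4 and 4 without dex replicate 2, 9 and 9 without EtOH replicate 1 and 10 and 7 without EtOH replicate 2. *KRT8*, *KRT18* and *KRT19* were not called with dex replicate 2 left out. In the TGF-beta list 6 of 22 rose and 5 fell, with the receptors *TGFBR1* (1.48, SE 0.13, edgeR adjusted p = 1.14e-06) and *TGFBR3* (1.16, SE 0.14, edgeR adjusted p = 3.83e-05) higher, and the mediator *SMAD3* (-0.76, SE 0.11, edgeR adjusted p = 0.000175) and the pseudoreceptor *BAMBI* (-1.14, SE 0.14, edgeR adjusted p = 4.26e-05) lower. For the TGF-beta list the counts of higher and lower genes were 5 and 4 without dex replicate 1, 5 and 4 without dex replicate 2, 10 and 5 without EtOH replicate 1 and 6 and 7 without EtOH replicate 2.

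Acute phase and coagulation genes rose in 7 of 19 cases and fell in 6. *SERPINA3*, antichymotrypsin, rose by 2.87 (SE 0.29, edgeR adjusted p = 4.58e-06), *THBD*, thrombomodulin, by 2.33 (SE 0.11, edgeR adjusted p = 1.96e-09), the complement protein *C3* by 1.70 (SE 0.13, edgeR adjusted p = 1.47e-07) and the fibrinogen chains *FGA* by 1.98 (SE 0.14, edgeR adjusted p = 7.89e-08) and *FGB* by 1.50 (SE 0.15, edgeR adjusted p = 4.86e-06). Of the plasminogen activation genes, *PLAT*, tissue plasminogen activator, fell, at -1.31 (SE 0.47, edgeR adjusted p = 0.0797) and *PLAUR*, the urokinase receptor, at -1.22 (SE 0.19, edgeR adjusted p = 0.000387), while *PLAU*, urokinase itself, rose by 0.36 (SE 0.13, edgeR adjusted p = 0.073). For the acute phase list the counts of higher and lower genes were 6 and 1 without dex replicate 1, 6 and 1 without dex replicate 2, 6 and 6 without EtOH replicate 1 and 8 and 5 without EtOH replicate 2. *PLAU* was not called with dex replicate 1, dex replicate 2 or EtOH replicate 1 left out, and *PLAT* was not called with dex replicate 1, dex replicate 2 or EtOH replicate 2 left out. Interferon response genes gave 3 rises (among them *IFIT1* 1.29 and *GBP1* 1.19) and 3 falls (*PSMB9* -1.49, *OAS1* -0.74, *OAS3* -0.43) in 18 tested, and these counts were 0 and 0 without dex replicate 1, 1 and 0 without dex replicate 2, 2 and 3 without EtOH replicate 1 and 4 and 2 without EtOH replicate 2. Of 25 p53 target genes 5 rose, among them *CDKN1A* and the growth arrest gene *GADD45A* (1.06), and 3 fell, among them the death effector *BAX* (-0.64) and the damage recognition gene *DDB2* (-0.55), and the counts were 3 and 1 without dex replicate 1, 2 and 0 without dex replicate 2, 7 and 5 without EtOH replicate 1 and 5 and 4 without EtOH replicate 2.

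The A549 and lung epithelial list, used above to check the line, had 16 of 20 genes tested, 3 higher and 9 lower. The falls included the lineage factors *FOXA1* at -0.95 (SE 0.19, edgeR adjusted p = 0.00336) and *FOXA2* at -1.14 (SE 0.15, edgeR adjusted p = 5.75e-05), the adhesion molecule *EPCAM* at -0.71 (SE 0.23, edgeR adjusted p = 0.0501), and *NQO1* (-0.49), *TXNRD1* (-0.42), *AKR1B10* (-0.41) and *ALDH3A1* (-0.43), enzymes of antioxidant defence and detoxification. The 3 rises were the keratins *KRT7* (0.36), *KRT8* and *KRT18*. The list as a whole made up between 3.06% and 3.19% of the counts in each of the 4 libraries. For the A549 list the counts of higher and lower genes were 2 and 3 without dex replicate 1, 0 and 1 without dex replicate 2, 3 and 9 without EtOH replicate 1 and 5 and 9 without EtOH replicate 2. *EPCAM*, *NQO1*, *TXNRD1*, *AKR1B10*, *ALDH3A1* and *KRT7* were not called with either dex library left out, and *FOXA1* was not called with dex replicate 2 left out.

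**Figure D5:**
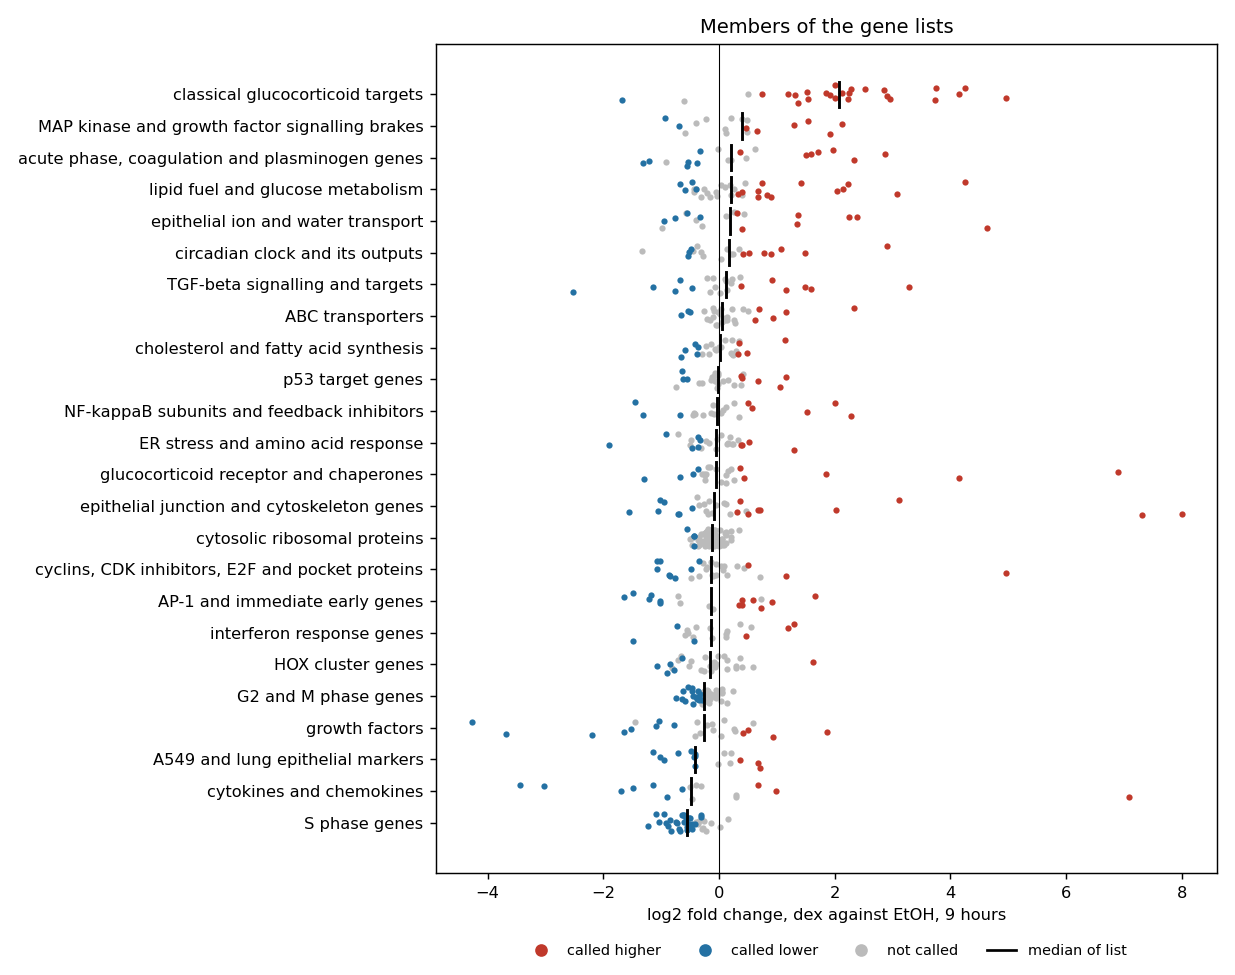
Log2 fold change of dex against EtOH at 9 hours (horizontal axis) for the tested members of 24 gene lists (rows), 1 point per gene, red for called higher, blue for called lower and grey for not called, with a black bar at the median. Genes with 0 counts in a treatment are drawn at their fitted value, which is no bound. The classical GC targets lie furthest to the right (median 2.07), and the S phase genes are the list with the lowest median (-0.55).

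The response at 9 hours was then set against those at 3, 7 and 11 hours, each of which has its own EtOH libraries, as the difference of the log2 fold changes in 1 edgeR fit of 8 libraries. Against 3 hours, 1687 features (8.48%) differed, 748 with the 9-hour response above (3.76%) and 939 with it below (4.72%). The joined genes above had a median G+C content of 40.9% and those below one of 57.2%, against 48.2% over all genes, and 1020 of 15337 differed once each library's trend with G+C content was removed, against 1477 before, with 725 called both ways. The number was 384 without dex replicate 1, 789 without dex replicate 2, 3063 without EtOH replicate 1 and 2009 without EtOH replicate 2 of 9 hours. DESeq2 gave 1089. The G+C content of a gene thus moved with the difference, and below each difference is followed by its SE, its adjusted p and, after the word then, its adjusted p without the trend.

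Some responses were larger at 9 hours than at 3 hours. *CUX2* had 5 and 2 counts in the dex libraries and 3 and 8 in the EtOH libraries at 3 hours, 44 and 45 counts in the dex libraries and 2 and 1 in the EtOH libraries at 5 hours, 50 and 35 counts in the dex libraries and 3 and 2 in the EtOH libraries at 7 hours and 19 and 21 counts in the dex libraries and 4 and 2 in the EtOH libraries at 11 hours, so that its rise was seen from 5 hours on, and the difference between 9 and 3 hours was 6.60 (SE 1.14, edgeR adjusted p = 0.00211), then 0.00226. *ACSL1* (1.46, SE 0.17, edgeR adjusted p = 4.1e-05, then 4.51e-05), *KRT6A* (3.16, SE 0.72, edgeR adjusted p = 0.0148, then 0.014) and *IL15* (1.15, SE 0.19, edgeR adjusted p = 0.00174, then 0.00411) had higher responses at 9 hours. *MCM2* differed by -1.61 (SE 0.17, edgeR adjusted p = 2.06e-05), then 6.14e-05, *E2F1* by -1.26 (SE 0.17, edgeR adjusted p = 0.000325), then 0.009, *IGFBP3* by -1.30 (SE 0.18, edgeR adjusted p = 0.000401), then 0.0011, and *SEMA3A* by -1.43 (SE 0.24, edgeR adjusted p = 0.00174), then 0.00052, all of them lower at 9 hours than at 3 hours. The responses of *IGFBP3* and *SEMA3A* were already below 0 at 3 hours (-0.91 and -0.81), while those of *MCM2* and *E2F1* were above 0 (0.37 and 0.22). Other responses were smaller at 9 hours. *CXCL8*, the neutrophil chemokine IL-8, had 3 and 3 counts in the dex libraries and 44 and 50 in the EtOH libraries at 3 hours and 14 and 25 counts in the dex libraries and 32 and 22 in the EtOH libraries at 9 hours, where it was not called (-0.39, edgeR adjusted p = 0.512), a difference of 3.45 (SE 0.57, edgeR adjusted p = 0.00172), then 0.00426. *RAB20*, a small GTPase, had 25 and 40 counts in the dex libraries and 4 and 5 in the EtOH libraries at 3 hours and 16 and 20 counts in the dex libraries and 14 and 11 in the EtOH libraries at 9 hours, a difference of -2.28 (SE 0.63, edgeR adjusted p = 0.0403), then 0.0907. *NR1D2* went from a log2 fold change of 1.48 at 3 hours to 0.03 at 9 hours, a difference of -1.47 (SE 0.19, edgeR adjusted p = 0.000325), then 4.51e-05. *PER1* was still high at 9 hours but less so than at 3 hours, by -0.98 (SE 0.24, edgeR adjusted p = 0.0199), a call not made without the G+C trend (0.189).

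Against 7 hours, 333 features (1.67%) differed, 124 with 9 hours above (0.623%) and 209 below (1.05%). The number was 2 without dex replicate 1, 18 without dex replicate 2, 2326 without EtOH replicate 1 and 989 without EtOH replicate 2 of 9 hours, and 13 in a fit of all 24 libraries. The joined genes above had a median G+C content of 40.6% and those below one of 58.3%, and 75 genes differed once the G+C trend was removed, against 286 before, with 55 called both ways. *KLF15* was among them, at -2.10 (SE 0.28, edgeR adjusted p = 0.0106), then 0.0389, and so was *GADD45A*, a stress gene of growth arrest, at -0.77 (SE 0.16, edgeR adjusted p = 0.0397), then 0.0567. *HSPA1A* at -0.71 (SE 0.18, edgeR adjusted p = 0.0719) was not called without the G+C trend (0.233). Against 11 hours edgeR called 0 features, with 1859 at an unadjusted p under 0.05, and DESeq2 called 31. *FKBP5*, *ABCC4* and *HOXA3* differed from their 7-hour responses by 0.10, 0.33 and -0.42, none of them called. The biological coefficient of variation of the 11-hour libraries was 12.7%, and its part in the count against 11 hours was not tested.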

How the data were processed

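Poly-A RNA of A549 cells was sequenced as single reads of 50 bases. The deposited values are raw read counts per transcript, which the authors made by mapping reads to GENCODE 19 transcripts with Bowtie and counting them with samtools. Per the labels the build was hg19. The study's methods call the libraries stranded. How reads that fit several transcripts were placed, and whether strand was used in counting, is not given in the sources used here, so values of near-identical genes and of antisense pairs are uncertain. The study's methods name triplicates, and 2 replicates per group are in the labels.

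For this report, counts were summed per gene through the GENCODE 29 annotation (GRCh38) by transcript identifier without version. Of 119207 transcripts, 110262 matched (94.1% of the counts), giving 33127 genes, and 8945 stayed as features of their own. Coordinates are those of GENCODE 29. Features with low counts in all 12 groups of 24 libraries were removed with filterByExpr, leaving 19897. edgeR 4.0.16 (R 4.3.3) with TMM normalisation and the robust quasi-likelihood F-test compared the 2 dex with the 2 EtOH libraries of 9 hours, at a Benjamini-Hochberg adjusted p of at most 0.1. SE was taken as the absolute log2 fold change over the root of F. The test was checked on simulated data first. Differences between times used the same test on 8 libraries. Where the lower group had 0 counts, the bound sets 3 counts per library. At 1 to 3 counts a ratio with an exact 95% interval is given, which covers counting error only.

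Named genes were *FKBP5*, *HOXA3* and *ABCC4*, the 12 protein-coding genes with the largest called and non-overlapping change in each direction and at least 20 counts in both libraries of the higher group, up to 4 called members per direction and up to 3 uncalled ones of each list, and the 4 largest differences between times in each direction. Further list members were named after their values were seen, and so were the promoters printed. Results for a few genes are not reported here. The gene lists and members were chosen with earlier results of these data known. Alternatives were DESeq2 1.42.0, its size factors, other filters, a fit of all 24 libraries, a replicate block, single transcripts, a threshold of 0.05 and each library left out. Removal of each library's trend with G+C content was added after the data were seen. Promoter windows and their sequences are from RefSeq (GRCh38.p14).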

Additional observations from a re-analysis of the deposited data

Results flagged for a closer look

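The results below are those whose response at 9 hours differed from the response at 3 or 7 hours in the test of the difference itself (edgeR, 8 libraries, adjusted p of at most 0.1). Each value is the log2 fold change at 9 hours minus that at the other time. With the trend of counts on G+C content removed, fewer genes differed, as given in the report. Not every gene named below was still called then, and the loss is stated for only some.

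Against 3 hours, the target genes *FKBP5* (0.76) and *KLF9* (0.94) had larger rises at 9 hours, as did *CDH16* (3.56), *SLC16A12* (3.32), *CUX2* (6.60), *KRT6A* (3.16) and *GPR1* (2.51) among the genes with the largest rises. *TSC22D3* (-0.72) and *PER1* (-0.98) were still raised at 9 hours, less than at 3 hours, and *IGFBP1* differed by -1.03. Among the genes with the largest falls, *IGFN1* (-2.23), *DIO2* (-0.93) and *SEMA3A* (-1.43) were further below 0 at 9 hours. The heat shock gene *HSPA1A* differed by -1.15 and the co-chaperone *BAG1* by -0.73. Among clock genes *NR1D2* differed by -1.47, *CRY1* by 0.65 and *BHLHE40* by 0.56.

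Signalling genes differed in both directions from 3 hours. The ligands *IL15* (1.15), *IL18* (0.68), *CSF1* (0.82), *PDGFC* (0.73) and *EREG* (1.25) were above their 3-hour responses, and *INHBB* (-0.70) and *IGFBP3* (-1.30) were below. *CXCL8* differed by 3.45, with a log2 fold change of -3.85 at 3 hours and of -0.39 at 9 hours, where it was not called. *TNFAIP3* (1.18), *KLF10* (1.14), *DUSP5* (0.69), *DUSP4* (0.72), *PHLDA1* (0.52) and *HOXB3* (0.81) were above. *RASD1* (-4.24), a Ras-like gene induced by dex, had 29 and 24 counts in the dex libraries and 0 and 2 in the EtOH libraries at 3 hours and 7 and 3 counts in the dex libraries and 2 and 6 in the EtOH libraries at 9 hours, where it was not called, and the difference was not called without the G+C trend (adjusted p = 0.111). *RAB20* (-2.28), the carotene-cleaving enzyme *BCO1* (-2.39), *AC246680.1* (-3.21) and *AC025162.1* (-2.26) were below, and *AL355075.2* (1.84) was above.

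Cell cycle genes had lower responses at 9 than at 3 hours, namely *MCM2* (-1.61), *CDC6* (-0.92), *DTL* (-0.79), *MCM5* (-0.99), *RANGAP1* (-0.78), *MKI67* (-0.70), *NDC80* (-0.74), *E2F1* (-1.26), *E2F8* (-0.77) and *E2F2* (-1.11). In metabolism and transport, *ACSL1* (1.46), *PDK4* (0.53) and *IDI1* (0.55) were above their 3-hour responses, while *SCD* (-0.42), *SLC4A4* (-0.68), *SLC12A7* (-0.93), *CA12* (-0.45), *SLC7A11* (-1.06) and the serine synthesis enzyme *PHGDH* (-1.24) were below. Among secreted and junction genes *LTBP1* (0.67), *FGA* (1.21) and *C3* (1.13) were above, and *CLDN2* (-0.93), *KRT19* (-1.11) and *SERPINE2* (-0.56) below. Among p53, interferon and stress genes *CCNG1* (0.55) and *DNAJC3* (0.56) were above, and *BAX* (-0.94), *DDB2* (-0.52), *FDXR* (-0.74) and *OAS3* (-0.54) below. In the p53 list 2 genes were above and 3 below, and 0 and 1 with the G+C trend removed. In the interferon list these counts were 0 and 1, and 0 and 0 with the trend removed. The line's markers *FOXA2* (-0.63) and *NQO1* (-0.56) and the fibroblast marker *COL1A1* (-1.94) were below. So were the ribosomal protein genes *RPLP1* (-0.85), *RPLP2* (-0.57), *RPS9* (-0.81) and *RPL10A* (-0.77), which stayed below 0 at 9 hours with each library left out, although the direction of their list turned with the EtOH library left out.

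Against 7 hours, *KLF15* differed by -2.10, *HSPA1A* by -0.71, *RANGAP1* by -0.74, *FGA* by -0.67 and *C3* by -0.57. *GADD45A* differed by -0.77, *RPLP2* by -0.64, *KRT8* by -0.79 and *KRT7* by -0.63, while *DTL* differed by 0.56. With the G+C trend removed *KLF15* and *GADD45A* were still called, whereas *HSPA1A*, *RANGAP1*, *FGA*, *C3*, *RPLP2* and *DTL* were not. In the junction list, which holds *KRT8* and *KRT7*, 2 genes were below their 7-hour responses, and 1 with the trend removed. Of the genes with the largest differences, *PSPC1-AS2* (2.22), *AL355075.2* (2.02), *HEPACAM* (1.82), a cell adhesion gene, and *LINC01004* (1.73) were above, and *AC025162.1* (-3.06), *AC127496.1* (-2.18) and the receptor gene *IL23R* (-2.12) below. The noncoding genes among them may share reads with genes on the other strand. All differences from 7 hours rest on the EtOH and dex libraries of 9 hours together, since 2 features were called without dex replicate 1, 18 without dex replicate 2, 2326 without EtOH replicate 1 and 989 without EtOH replicate 2.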

How the results depend on the processing

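No named gene that was called at 9 hours changed direction under any alternative, while some uncalled ones did. Of the 185 named genes called at 9 hours, the call was kept for 185 with no filter, 185 with DESeq2 size factors, 180 in the fit of all 24 libraries, 176 with the G+C trend removed, 167 at a threshold of 0.05, 159 of 181 with the most counted transcript alone and 153 of 181 by DESeq2, and for 124 and 114 without dex replicate 1 and 2 and 179 and 178 without EtOH replicate 1 and 2. The count of called features depended most on the library left out, from 1304 to 6103 (830 to 3122 higher, 474 to 2981 lower) around 3623. DESeq2 called 2032 (1183 higher, 849 lower), and single transcripts gave 5841 (3382 higher), more features being tested. With the replicate number as a block 5225 features were called at 9 hours. The correlation of same-numbered deviations was 0.1353, -0.05876, 0.02604, -0.0146, 0.1016 and -0.0249 at 1 to 11 hours. No strong shared deviation was seen, but with 2 libraries per group these values cannot tell whether the samples were paired. The study's methods call the ethanol control paired. Differences from 3 hours, 1687, became 1089 by DESeq2, 1020 with the G+C trend removed, 906 at a threshold of 0.05 and 384 to 3063 without 1 library. Differences from 7 hours, 333, became 168 by DESeq2, 822 with no filter, 13 in the fit of all 24 libraries, 75 with the G+C trend removed, 94 at a threshold of 0.05 and 2 to 2326 without 1 library. Differences from 11 hours, 0, became 31 by DESeq2, 261 with no filter, 106 in the fit of all 24 libraries, 74 with the replicate block, 1 for single transcripts, 3 with the G+C trend removed and 0 to 1 without 1 library. Apart from the library left out, the cause of these shifts was not tested. Where a dex library was left out, the lone one was assumed to vary like the EtOH pair, and the reverse, and genes with few counts in all 4 libraries, such as *TAT*, had little precision.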

Other observations

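Further groups of features stand outside the gene lists. Among 2081 long noncoding and antisense genes tested at 9 hours, 199 were called. Among the 4560 transcripts that matched no gene of the annotation and were kept as features of their own, 556 were called, while 3067 of the 15337 joined genes were. These counts are set against the 18.2% called over all features, and the use of strand in counting is not given in the sources used here.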
